A study of Homo sapiens with 6 samples.

Results

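Capicua (CIC) and its partner ATXN1L were followed with 6 known CIC targets, ETV1, ETV4, ETV5, DUSP6, SPRY4 and SPRED3, in RNA sequencing of Daoy cells. These 8 genes were taken by name, out of 60554 gene identifiers counted in each library, and all 8 passed the filter on low counts. Daoy is a human cell line, long established, that derives from a medulloblastoma of the cerebellum. In 3 libraries the cells carried lentiviral wild-type ZBTB7B (WT) and in the other 3 lentiviral ZBTB7B with the substitution R363L in its zinc fingers (ZFmut). Culture lasted 4 days in medium with 10% serum, the dose was 15 infectious particles per cell and exposure to virus lasted 72 hr. Every library carried one of the transgenes, so no untransduced level was measured. Differences below are WT minus ZFmut with n = 3 libraries in each group. Whether replicates were separate cultures is not stated in the labels, and p-values therefore reflect only how far these libraries differ from each other, which may be technical.

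CIC is an HMG-box protein that binds a short octamer near its target genes and represses them. It works in a complex with ATXN1 or the related ATXN1L, and the toxicity of expanded ATXN1 in spinocerebellar ataxia type 1 runs through this complex. ERK signalling, the cascade from RAS through RAF and MEK, inactivates CIC, and its targets are then transcribed. Among them are the PEA3 group of ETS transcription factors (ETV1, ETV4, ETV5) and inhibitors that feed back on the cascade (DUSP6, SPRY4, SPRED3).

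The octamer was searched on both strands in RefSeq promoter windows (build GRCh38.p14), which run from 250 bases before to 50 after a transcript start. The forms searched were TGAATGAA, TGAATGGA, TCAATGAA and TCAATGGA. The table matched 6 of the 8 genes (CIC, ATXN1L, ETV1, DUSP6, SPRY4 and SPRED3, with 14 windows in all) and not ETV4 and ETV5. CIC, ETV1, DUSP6 and SPRED3 each had a match in 1 window. Of all 35116 windows of this length 3.77% had one, and of the 27305 genes with such windows 4.62%. The stretches are shown because they carry the letters that the repressor is known to read; capitals mark the octamer or its reverse complement on the gene's own strand.
ETV1, minus strand, chr7:13991493-13991630: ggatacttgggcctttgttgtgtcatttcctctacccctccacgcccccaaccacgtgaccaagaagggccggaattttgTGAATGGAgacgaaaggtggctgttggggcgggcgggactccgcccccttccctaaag
SPRED3, plus strand, chr19:38389541-38389641: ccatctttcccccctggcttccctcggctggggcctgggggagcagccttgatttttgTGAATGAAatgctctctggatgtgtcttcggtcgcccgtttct
DUSP6, upstream copy, minus strand, chr12:89352507-89352536: cggagaatgtaTCCATTGAgacgctcgctg
DUSP6, copy at the start, minus strand, chr12:89352482-89352511: cgctgtttgtaTCCATTGAggagctgcctc
CIC, plus strand, chr19:42269234-42269263: gctgttgcaggTCCATTCAccattttgtgt
The ETV1 octamer began 125 bases and the SPRED3 octamer 192 bases before the start of the window's transcript. DUSP6 held the octamer in 2 copies, which began 24 bases before the start and at base 2 of the transcript, and the CIC octamer began 7 bases before the start of the transcript of its second window. The CIC and DUSP6 octamers lie wholly within exons of their own genes in GENCODE release 29, since other annotated transcripts of these genes start farther upstream, whereas those of ETV1 and SPRED3 lie outside their genes' exons. No octamer lay in the windows of SPRY4 and ATXN1L, which says only that these letters are not in those windows.

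With WT ZBTB7B, SPRY4, DUSP6 and ETV5 transcripts were higher and ETV4, SPRED3 and CIC itself were lower, while ATXN1L and ETV1 did not pass the test. The changes were small, from 1.57-fold higher for SPRY4 to 1.22-fold lower for SPRED3. The 6 calls among 8 genes, 3 in each direction, are to be read against 35.6% of all 18683 tested genes (18.4% higher and 17.2% lower), by edgeR's quasi-likelihood test with a Benjamini-Hochberg adjusted p threshold of 0.05. That share was 43.6% among the 9752 genes whose mean level lay within the range of the 8. The median log2 difference of the 8 genes was 0.06, and that of all tested genes 0.00; the median sizes without sign were 0.28 and 0.19. In 6 of the 8 genes the libraries of WT and ZFmut did not overlap in CPM (read count scaled to library size), as in 47.2% of all tested genes. SPRY4 alone was called with a change of at least 1.5-fold, a mark that 10.8% of all genes met.

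**Figure D1:**
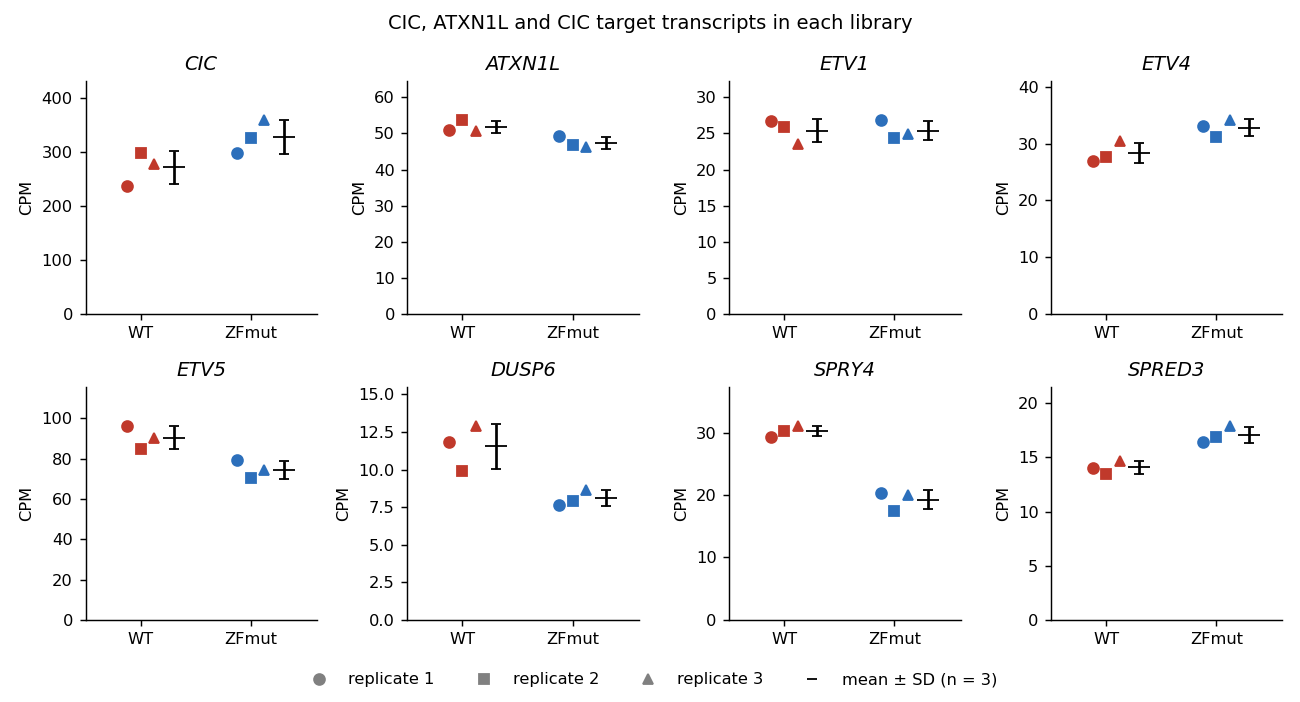
Level of each of the 8 genes as read count scaled to library size (CPM, vertical axis from 0) in the 3 WT and 3 ZFmut libraries, with points for libraries and black bars for mean ± SD (n = 3). The groups do not overlap for SPRY4, DUSP6, ETV5 and ATXN1L (WT above) or for ETV4 and SPRED3 (WT below), and overlap for CIC and ETV1.

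Reads assigned to genes ranged from 22236214 to 102730428 per library, and 7.71 to 8.08% of each library's total was left out as fitting more than 1 gene. ZBTB7B itself was at 904 ± 44.3 CPM in WT and 576 ± 43.8 CPM in ZFmut (SD, n = 3), so the groups differed in the amount of its transcript as well as in the substitution, and the effects of these cannot be told apart. In bulk RNA, fewer cells that express a gene and less of its RNA per cell cannot be told apart either. All 8 markers set for a neural progenitor and medulloblastoma line (NES, VIM, SOX9, GLI2, PTCH1, ZIC1, MSI1, CDK6) were detected. Of these 8, NES (-0.45 ± 0.08, edgeR adjusted p = 0.000404) and MSI1 (-0.62 ± 0.08, 2.08e-05) were lower with WT, PTCH1 (0.14 ± 0.05, 0.0472) was higher, and 5 were not called, among them VIM at 662 ± 3.86 and 663 ± 37.7 CPM. Of 15 markers of T cells, neurons, glia, epithelium and endothelium, 9 passed the low-count filter, each at a group mean of at most 7.61 CPM, and 6 did not (CD3D, CD3E, CD8A, PTPRC, AIF1 and KRT5). Of those 9, CDH1 and MBP were higher with WT, CD4, GFAP and PECAM1 lower, and RBFOX3, SYP, EPCAM and VWF not called. At low levels, CDH1 (2.69 ± 0.20, 2.91 against 0.471 CPM) and PECAM1 (-2.10 ± 0.28, 0.303 against 1.37 CPM) differed more than any of the 8 genes. Among all tested genes 35.6% were called, and the 37.5% called of the 8 line markers was near that share. The part of these markers in the results was not tested.

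CIC (ENSG00000079432.7, GRCh38 chromosome 19, 42268537 to 42295797, plus strand) encodes the repressor. It was at 238, 299 and 278 CPM in the WT libraries, in the order of their replicate numbers, and at 298, 327 and 360 CPM in the ZFmut libraries. WT replicate 1 was lowest, ZFmut replicate 3 highest, and the groups overlapped only in that WT replicate 2 lay just above ZFmut replicate 1. The log2 difference was -0.27 ± 0.08 (SE, edgeR adjusted p = 0.0159), at means of 272 ± 31.1 and 329 ± 30.9 CPM, or 1.21-fold lower with WT. CIC also had the widest spread of the 8 among ZFmut libraries, with a coefficient of variation of 9.4%, and 11.5% among WT libraries. Leaving out WT replicate 1 (-0.20, edgeR adjusted p = 0.0598) or ZFmut replicate 3 (-0.20, 0.105) ended the call, and over all alternatives the adjusted p ran from 5.03e-07 to 0.105. Of the 9668 sequences of 50 bases in its annotated transcripts none occurred in an annotated transcript of another gene.

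ATXN1L (ENSG00000224470.7, chromosome 16, 71845991 to 71885268, plus strand), the ataxin-1-like partner that keeps CIC protein stable, was at 51.0, 53.8 and 50.8 CPM in WT and 49.2, 46.8 and 46.2 CPM in the ZFmut libraries. All WT libraries lay above all ZFmut libraries, by a small gap. The log2 difference of 0.13 ± 0.06 did not pass (edgeR adjusted p = 0.0743, unadjusted p = 0.0292, 95% interval 0.02 to 0.25). Without ZFmut replicate 1 it did (0.15, edgeR adjusted p = 0.0430; 0.0147 to 0.256 over the alternatives). ATXN1L shares 2.26% of its exonic sequence with IST1, a gene of endosomal sorting on the same strand. IST1 was at 119 ± 2.29 against 105 ± 1.88 CPM. ATXN1, the better-known partner, was at 141 ± 3.80 against 119 ± 3.74 CPM. In CPM per kilobase of exon, CIC exceeded ATXN1L by 4.2, 5.01 and 4.92 times in the WT libraries and by 5.46, 6.3 and 7.01 times in the ZFmut libraries. The ratio of repressor to partner transcript was therefore lower in each WT library than in any ZFmut library. It is not corrected for GC content, which was 65.8% in CIC and 50.7% in ATXN1L. The GC and length correction given below put CIC at -0.15 and ATXN1L at 0.13.

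The PEA3 genes did not move as a group. ETV5 (ENSG00000244405.7, chromosome 3, 186046308 to 186110318, minus strand) was at 96.2, 84.6 and 90.3 CPM in WT and 79.1, 70.3 and 74.2 CPM in the ZFmut libraries. Its WT libraries all lay above its ZFmut libraries, and the log2 difference was 0.28 ± 0.06 (SE, edgeR adjusted p = 0.00245), or 1.21-fold. ETV4 (ENSG00000175832.12, chromosome 17, 43527844 to 43579620, minus strand) went the other way, at 27.0, 27.7 and 30.4 CPM in WT against 33.1, 31.2 and 34.2 CPM in ZFmut. Its groups did not overlap, though the highest WT library, replicate 3, came close to the lowest ZFmut library, replicate 2. The log2 difference was -0.22 ± 0.07 (SE, edgeR adjusted p = 0.0208), and leaving out WT replicate 1 (-0.19, edgeR adjusted p = 0.0650), WT replicate 2 (-0.20, 0.0853) or ZFmut replicate 3 (-0.18, 0.119) ended the call. Over all alternatives the adjusted p of ETV4 ran from 0.00169 to 0.253.

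ETV1 (ENSG00000006468.13, chromosome 7, 13891228 to 13991425, minus strand) was at 26.7, 25.9 and 23.6 CPM in WT and 26.9, 24.4 and 24.9 CPM in the ZFmut libraries. The groups overlapped over nearly their whole range. The log2 difference was 0.00 ± 0.07 (edgeR adjusted p = 0.968), with a 95% interval of -0.14 to 0.15. Of its 6 promoter windows 1 held an octamer. Among the other genes with an octamer in a window, CIC and SPRED3 were lower and DUSP6 was higher.

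Per kilobase of exon, ETV5 was the most abundant PEA3 transcript in every library and ETV1 the least. ETV5 made up 61.8, 58.4 and 58.9% of the summed PEA3 level with WT (replicates in order), and 53.2, 52 and 51.5% with ZFmut. ETV4 made up 27.9, 30.8 and 31.8% in WT and 35.8, 37.1 and 38.1% in ZFmut. The ETV1 share stayed between 9.3 and 10.9% in all 6 libraries. The sum itself was 26.8, 25 and 26.4 CPM per kilobase in WT and 25.6, 23.3 and 24.9 in ZFmut, ranges that overlap. ETV5 stood at 1.85 to 2.21 times ETV4 in WT and at 1.35 to 1.49 times in ZFmut, ranges that do not overlap. These shares and ratios are not corrected for GC content, which was 60.8% in ETV4 and 48.6% in ETV5. After the GC and length correction given below, ETV5 was at 0.24 and ETV4 at -0.09, the latter not called.

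**Figure D2:**
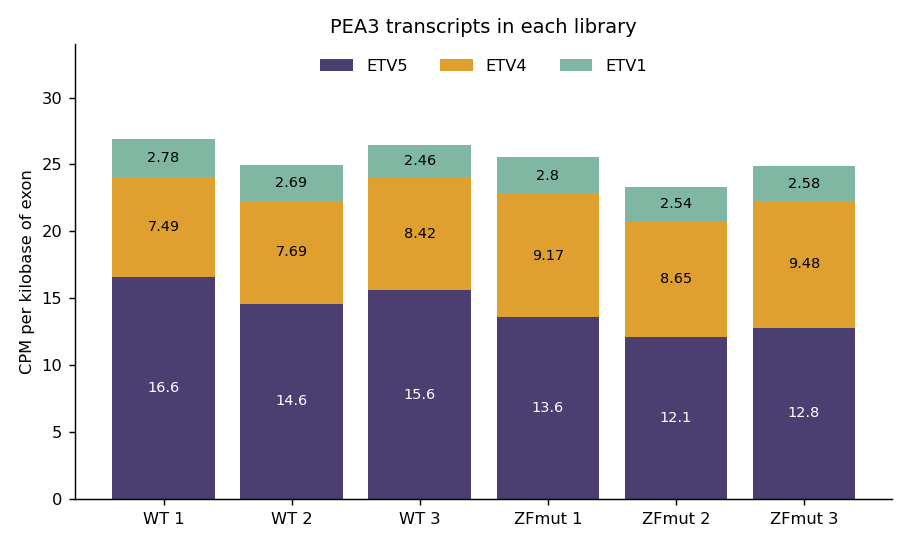
Stacked bars of ETV5, ETV4 and ETV1 levels in CPM per kilobase of exon in each of the 6 libraries, with the value of each gene written in its segment. ETV5 is 14.6 to 16.6 in the WT libraries and 12.1 to 13.6 in the ZFmut libraries, and ETV4 is 7.49 to 8.42 and 8.65 to 9.48.

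Of the feedback inhibitors, SPRY4 (ENSG00000187678.8, chromosome 5, 142310427 to 142326455, minus strand), a Sprouty protein that blocks receptor tyrosine kinase signalling to RAS, showed the largest difference of the 8 genes. It was at 29.4, 30.3 and 31.1 CPM in WT and 20.3, 17.5 and 20 CPM in the ZFmut libraries. The gap between groups was wide next to the spread within them, and the log2 difference was 0.65 ± 0.07 (SE, edgeR adjusted p = 6.91e-06), larger in size than that of 89.1% of tested genes. Without any 1 library it stayed between 0.58 and 0.68.

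DUSP6 (ENSG00000139318.7, chromosome 12, 89347232 to 89353271, minus strand), the phosphatase that removes the activating phosphates of ERK in the cytoplasm, was at 11.8, 9.92 and 12.9 CPM in WT and 7.63, 7.93 and 8.67 CPM in the ZFmut libraries. The groups did not overlap, but WT libraries varied more than ZFmut libraries, with coefficients of variation of 12.9 and 6.62%. The log2 difference was 0.48 ± 0.10 (SE, edgeR adjusted p = 0.00230), or 1.40-fold, and 0.40 to 0.59 with 1 library left out. DUSP6 rested on the fewest reads of the 8 genes, 171 to 883 per library. An antisense gene, AC024909.2, covers 40.5% of its exonic sequence on the other strand, the NEBNext Ultra RNA kit does not mark strand, and the strand setting of the counting is unknown. AC024909.2 had 0 or 1 read per library. If reads in the overlap were set aside as fitting more than 1 gene, 2.757 of the 4.632 kilobases of DUSP6 exon could be counted.

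SPRED3 (ENSG00000188766.12, chromosome 19, 38388421 to 38399587, plus strand), a Sprouty-related inhibitor of RAS and RAF activation, was at 14, 13.5 and 14.7 CPM in WT and 16.4, 16.9 and 17.9 CPM in the ZFmut libraries. WT libraries were all below ZFmut libraries, opposite to SPRY4 and DUSP6. The log2 difference was -0.29 ± 0.07 (SE, edgeR adjusted p = 0.00612), and leaving out ZFmut replicate 3 ended the call (-0.25, edgeR adjusted p = 0.0538; 0.00077 to 0.0538 over the alternatives). Its relatives SPRED2 and SPRED1, named after their values were seen, were higher by 0.19 ± 0.05 (edgeR adjusted p = 0.00781) and 0.16 ± 0.06 (0.0397). The difference between SPRED3 and its relatives was not tested.

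Levels of the 8 genes per kilobase of exon stood in the same order in both groups at the top. CIC led at 28.6 ± 3.28 CPM per kilobase in WT and 34.6 ± 3.25 in ZFmut, followed by ETV5 at 15.6 ± 0.995 and 12.8 ± 0.757. ETV4 came next at 7.86 ± 0.488 and 9.10 ± 0.419, then ATXN1L at 6.07 ± 0.198 and 5.55 ± 0.183. SPRY4 followed, at 4.61 ± 0.134 in WT and 2.93 ± 0.235 in ZFmut. In WT the lowest 3, ETV1 at 2.64 ± 0.164, DUSP6 at 2.49 ± 0.320 and SPRED3 at 2.39 ± 0.0982, overlapped in their libraries and could not be ordered. In ZFmut, SPRY4, SPRED3 at 2.91 ± 0.131 and ETV1 at 2.64 ± 0.139 overlapped with their neighbours, and DUSP6 was lowest at 1.74 ± 0.115. Over the 2.757 kilobases outside the antisense gene alone, DUSP6 would stand at 4.17 and 2.93 CPM per kilobase.

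GC content of the transcripts moved with direction in part of the 8 genes. CIC at 65.8%, ETV4 at 60.8% and SPRED3 at 58.8% GC (longest transcript) were the richest in GC and were the 3 that were lower with WT. ATXN1L, SPRY4, ETV5 and DUSP6 lay between 46.7 and 50.7%, and ETV1, which did not pass the test, was the poorest at 38.1%. The part of GC content in these differences was not tested beyond the correction given below. Across all tested genes the same trend ran from a median log2 difference of 0.12 under 40% GC, where 3.58% of genes were called lower, to -0.15 over 60% GC, where 33.7% were called lower. Libraries differed in this within groups as well. The 2695 genes over 60% GC deviated from their own mean over the 6 libraries by a median of -0.18, 0 and -0.04 with WT and by -0.04, 0.12 and 0.15 with ZFmut (replicates in order). CIC deviated by -0.32, 0.01 and -0.10 and by 0.00, 0.14 and 0.27, lowest and highest in the same libraries. ETV4 deviated by -0.17, -0.14 and -0.01 and by 0.12, 0.03 and 0.17. SPRED3 deviated by -0.15, -0.19 and -0.08 and by 0.08, 0.13 and 0.21, and so was lowest in WT replicate 2, where the median of GC-rich genes was 0.

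**Figure D3:**
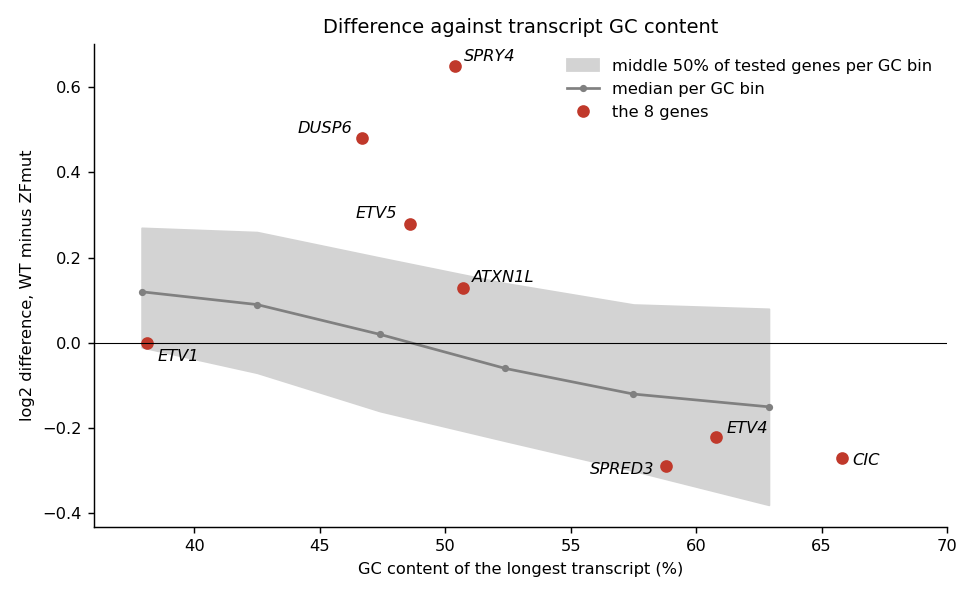
Log2 difference (WT minus ZFmut, vertical axis) against GC content of the longest transcript (%, horizontal axis). The grey line and band give the median and the middle 50% of all tested genes in 6 GC bins, and red points the 8 genes. SPRY4, DUSP6 and ETV5 lie above the band, while SPRED3 and ETV4 lie within it and CIC, at 65.8% GC, lies past its right end.

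After trends on GC content and exon length were removed from each library, 42.3% of 18547 genes were called by edgeR, and 7 of the 8 genes. SPRY4 (0.64 ± 0.06, edgeR adjusted p = 5.42e-08), DUSP6 (0.41 ± 0.09, 0.00134) and ETV5 (0.24 ± 0.05, 0.000353) kept their direction and call. CIC was at -0.15 ± 0.04 (edgeR adjusted p = 0.00398) and SPRED3 at -0.18 ± 0.07 (0.0291), smaller than on the deposited counts by more than 1.5 times. ETV4 was at -0.09 ± 0.06 and no longer called (edgeR adjusted p = 0.25, 95% interval -0.21 to 0.04). ETV1 turned lower at -0.17 ± 0.06 (edgeR adjusted p = 0.0217; 0.00847 to 0.978 over the alternatives), and ATXN1L passed at 0.13 ± 0.04 (0.0283). The higher calls of SPRY4, DUSP6 and ETV5 and the lower calls of CIC and SPRED3 thus stood in both fits, and those of ETV4, ETV1 and ATXN1L depended on the correction.

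**Figure D4:**
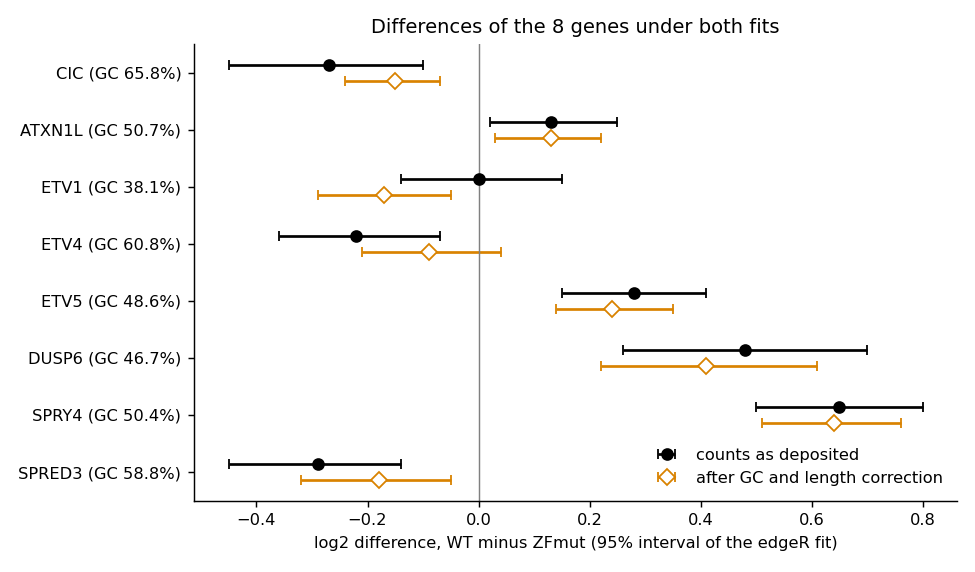
Log2 difference (WT minus ZFmut, horizontal axis) with its 95% interval for each of the 8 genes, from the deposited counts (black) and after GC and length correction (orange). SPRY4 stays at 0.65 and 0.64, whereas ETV4 moves from -0.22 to -0.09 and ETV1 from 0.00 to -0.17.

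Other genes reported as CIC targets, from a list of 22 that were all tested, included 9 higher and 4 lower with WT and 9 not called (median log2 difference 0.17), so that 59.1% were called where 35.6% of all tested genes were. DUSP4, a nuclear phosphatase of ERK, was at 48.3 ± 2.12 against 24.1 ± 2.82 CPM (0.99 ± 0.08, edgeR adjusted p = 3.05e-07). MMP24, a membrane-bound metalloproteinase, was 2.12-fold higher at 4.55 ± 0.313 against 2.13 ± 0.224 CPM. VGF, the precursor of secreted neuropeptides, was lower, at 141 ± 23.8 against 293 ± 38.8 CPM (-1.05 ± 0.11, edgeR adjusted p = 3.97e-06). SHC3, a neuronal adaptor of receptor tyrosine kinases, was lower too, at 15.1 ± 0.886 against 25 ± 0.667 CPM. Of the 14 targets with a promoter window, 5 held an octamer (SHC4, VGF, EPHA2, MAFF and PTPN9), a larger share than the 4.62% of all 27305 genes with windows. This difference was not tested.

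Relatives of the feedback inhibitors came from a list of 14 further Sprouty, Spred and MAP kinase phosphatase genes that shares 5 with the target list. Of 13 tested, 6 were higher and 1 lower (53.8% called, against 35.6% of all genes, median 0.11). The called SPRY2, DUSP4, SPRED1 and SPRED2 are also on the target list, whereas the called DUSP8, DUSP9 and DUSP16 are not. SPRY2, another Sprouty protein, was at 11.9 ± 1.30 against 7.69 ± 0.376 CPM, 1.52-fold higher (edgeR adjusted p = 0.000205). DUSP8, a phosphatase that acts mainly on stress-activated kinases, was 1.90-fold higher, and DUSP9, another phosphatase of ERK, was lower at -0.39 ± 0.07 (edgeR adjusted p = 0.000864). Among 18 tested ETS factors outside the PEA3 group, 10 were higher and 1 lower (61.1% called, against 35.6% of all genes, median 0.21). All 16 alternatives called fewer of them higher, 6 to 9, and 1 to 4 lower. ELF3, an epithelial ETS factor, was at 34.4 ± 1.38 against 14.9 ± 1.95 CPM, and GABPA, FLI1 and ETV6 were higher by 0.41 ± 0.06, 0.43 ± 0.08 and 0.31 ± 0.07. GC and length correction put GABPA at 0.24 and DUSP9 at -0.25, both still called.

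Of 11 CIC cofactors and turnover factors 3 were higher and 2 lower (median -0.01), and the 45.5% called was near the 35.6% of all genes. HDAC2 was higher by 0.29 ± 0.06 (edgeR adjusted p = 0.00111) and its close relative HDAC1 lower at -0.16 ± 0.05 (0.0228), both histone deacetylases that serve corepressors. SIN3B, a scaffold of such complexes, was lower at -0.24 ± 0.07 (edgeR adjusted p = 0.0123). Leaving out WT replicate 2 (edgeR adjusted p = 0.109), WT replicate 3 (0.0951) or ZFmut replicate 2 (0.0522) ended the HDAC1 call. That of SIN3B ended on leaving out WT replicate 1 (edgeR adjusted p = 0.0551), ZFmut replicate 2 (0.0525) or ZFmut replicate 3 (0.0628). HDAC2 was at 0.10 once GC and length trends were removed (edgeR adjusted p = 0.0559), SIN3B at -0.13 and ATXN1 at 0.15, the latter pair still called. Of 21 genes of the RAS-ERK cascade, which acts on CIC protein, 5 were higher and 3 lower (median 0.07), and the 38.1% called was near that of all genes. SOS2, a nucleotide exchange factor for RAS, was higher by 0.51 ± 0.07. KSR1, a scaffold of the cascade, and ARAF were lower at -0.39 ± 0.07 and -0.29 ± 0.06, and ARAF was at -0.18 and still called after that correction. A list of genes driven by ERK shares 4 with the target list. Of its 19 tested genes, 9 were higher and 4 lower (68.4% called, against 35.6% of all genes, median 0.21). Transcript levels say nothing of the phosphorylation of CIC or ERK, which was not measured.

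**Figure D5:**
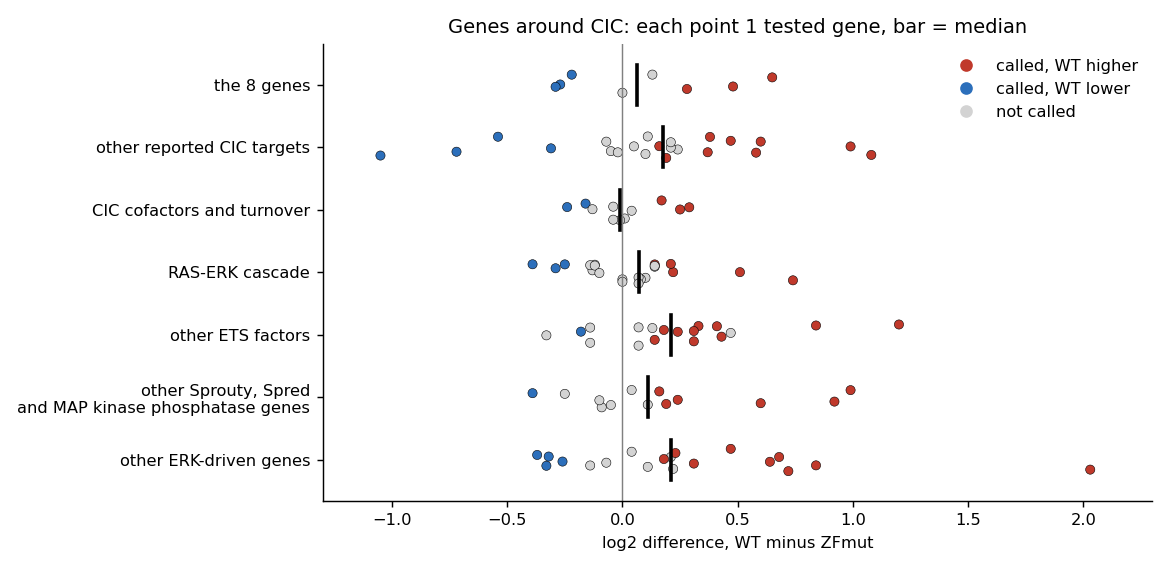
Log2 difference (WT minus ZFmut, horizontal axis) of each tested gene in the group of 8 and in 6 lists around CIC, 1 point per gene, with black bars for medians and colours for calls at the adjusted p threshold of 0.05. Each group holds points on both sides of 0, with medians from -0.01 for the cofactors to 0.21 for the ETS factors and the ERK-driven genes.

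Among 11243 other protein-coding genes with at least 5 CPM, the one most like each of the 8 was found by the root mean square difference of log2 CPM, centred on each gene's mean, over the 6 libraries. ETV5 was matched most closely, by ARHGEF12 at 0.0127, where the median over all candidates was 0.180. ADAMTS10 lay nearest to CIC (0.0172), TRIM68 to ATXN1L (0.0168) and MAT2B to ETV1 (0.0193). GNB1L lay nearest to SPRED3 (0.0267), KBTBD11 to SPRY4 (0.0301) and C19orf44 to ETV4 (0.0341). DUSP6 had the least close match, PTX3 at 0.0667. In no case was another of the 8 genes the nearest. Among so many candidates this was nearly fixed in advance, and whether the 8 genes vary together was not tested.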

How the data were processed

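The authors deposited 1 file of raw, unnormalised read counts per Ensembl gene for each library. The tools named in the submitters' processing notes are TopHat2 2.0.9, cutadapt, HTSeq and DESeq2, and the build is GRCh38; annotation release and strand setting: not given in the sources used here. HTSeq's summary lines entered neither library sizes nor tests: reads that fit more than 1 gene (7.71 to 8.08%), reads outside genes (5.04 to 6.56%) and multiple alignments (16.1 to 19.4%). Identifiers were matched without version to GENCODE release 29 (94.1% of 60554), which gave symbols, positions, exon lengths and GC content.

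WT and ZFmut were compared in R 4.3.3 with edgeR 4.0.16 (TMM, filterByExpr, two-sided quasi-likelihood F test, no covariates, Benjamini-Hochberg over all tested genes). All pairs of libraries differed beyond sampling noise in a chi-square test. In data simulated for the 18683 genes of this comparison, 20% of genes changed by 0.25 and 76% of those changed by 0.5 on the log2 scale were called. Only 50 genes were changed at each size there, whereas 6649 genes were called in the data. The Benjamini-Hochberg threshold depends on how many genes change, so these shares need not hold for the data. Alternatives were limma-voom (3.58.1), DESeq2 1.42.0, 2 other scalings, 2 other low-count filters, the replicate block, GC and length correction, thinning, and each library left out. CPM values use TMM library sizes. GC and length trends were fitted by loess (span 0.5) and entered as offsets.

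The 8 genes and the lists were chosen with earlier results of these data known. Named beside them are ZBTB7B, ATXN1, up to 4 called genes with the smallest adjusted p from a list (counts only for the ERK-driven list), genes that overlap the 8, and the nearest-pattern genes. One gene that this rule takes is not reported here.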

Additional observations from a re-analysis of the deposited data

How the results depend on the processing

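The directions and calls of SPRY4, DUSP6 and ETV5 were the same under all 16 alternatives. With 1 library left out, CIC ran from -0.35 to -0.20, ATXN1L from 0.11 to 0.15, ETV4 from -0.26 to -0.18 and SPRED3 from -0.33 to -0.25, and from 0 to 3 of the 8 genes were called lower. It was 0 without ZFmut replicate 3, the deepest library, and 1 without WT replicate 1. Thinning to the smallest library ended the call of ETV4 (-0.20, edgeR adjusted p = 0.0782). GC and length correction put ETV4 at -0.09 and ETV1 at -0.17, and with the replicate block at -0.08 and -0.18; ATXN1L then passed at 0.13 and 0.12; the cause was not tested. Deviations of same-numbered libraries correlated at 0.164, 0.077 and 0.0635, and those of differently numbered ones at -0.115 to 0.0475. Each WT library correlated best with its own number, and whether the numbers mark pairs was not tested. The replicate block raised the number of genes called from 6649 to 8692, passed ATXN1L at 0.13 and called 14 in place of 9 other CIC targets higher. Over all alternatives, 0 to 4 cofactors were lower, 2 to 9 cascade genes higher and 3 to 8 lower, and 6 to 9 ETS factors higher and 1 to 4 lower, against 2, 5, 3, 10 and 1. With only TGAATGAA and TGAATGGA searched, 3 in place of 4 of the genes held an octamer, and 3.22% in place of 4.62% of all genes with windows. DUSP6, at 171 reads in its shallowest library, was at 0.47 after thinning and still called (edgeR adjusted p = 0.00429).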

Other observations

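Of 451 tested genes with an octamer in a promoter window, 24.8% were higher and 18.6% lower with WT, and of 11743 with windows but no octamer 20.3% were higher and 19.1% lower. The median log2 differences were 0.033 and 0.003, and the difference between these sets was not tested.

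Of the genes that overlap the 8, DGKG, a diacylglycerol kinase whose exons overlap 2.83% of the exonic sequence of ETV5, was lower at -0.40 ± 0.09 (edgeR adjusted p = 0.00232) where ETV5 was higher. IST1, which overlaps ATXN1L on the same strand, was higher at 0.18 ± 0.05 (edgeR adjusted p = 0.0106). After GC and length correction it was at 0.07 and not called (edgeR adjusted p = 0.147). ZNF821, DHX8 and SPRY4-AS1 had the sign of their neighbour among the 8 and did not pass the test on the deposited counts without replicate block. ZNF821, which overlaps ATXN1L on the other strand, was at 2.88 ± 0.459 against 2.05 ± 0.468 CPM (0.44 ± 0.17, edgeR adjusted p = 0.0599). After GC and length correction ZNF821 passed at 0.56 (edgeR adjusted p = 0.00672), and with the replicate block at 0.49 (0.0116). DHX8, a splicing helicase that covers 1.89% of the exonic sequence of ETV4 on the other strand, was at -0.10 ± 0.05 and not called (edgeR adjusted p = 0.133). The antisense transcript SPRY4-AS1 shares no exonic base with SPRY4 and was at 0.936 ± 0.236 against 0.658 ± 0.0935 CPM (0.56 ± 0.26, edgeR adjusted p = 0.107).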
